A study of Oryza sativa with 15 samples.

Results

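Rice endosperm of the cross RL was compared with endosperm of the cross WY, locus by locus, in the maternal share of allele reads and in read level. RL has the indica line Rongfeng as mother and the japonica line Liuqianxin as father. WY has the indica line Wufeng as mother and the japonica line Yu6 as father. A locus was compared when it had at least 30 reads in RL and 20 reads in WY at SNP positions listed for both crosses, which held for 9547 of the 13828 loci in either deposited table. The mothers of all crosses were cytoplasmic male sterile lines (Rongfeng-A, Wufeng-A, Liuqianxin-A, Yu6-A) and the fathers were maintainer lines (Rongfeng-B, Wufeng-B, Liuqianxin-B, Yu6-B), so every group carries the sterility cytoplasm of its mother. The reciprocal crosses LR (Liuqianxin-A as mother, Rongfeng-B as father) and YW (Yu6-A as mother, Wufeng-B as father) were read at the same SNPs, beside RL and WY. Endosperm was taken 5 days after fertilization, with 20 to 30 endosperms pooled per library and a chamber temperature of 30 C for every library. The series also holds 5 libraries of inbred crosses that were not used here. The tables give 1 maternal and 1 paternal column per cross, so the 3 libraries of RL, 2 of WY, 3 of LR and 2 of YW are each pooled and no value below has a replicate check.

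Endosperm is the seed tissue that feeds the embryo, and it forms from a fertilization that brings 2 maternal genomes and 1 paternal genome together. At an imprinted gene the allele from one parent is expressed more than dosage predicts, whichever line that parent is. With an indica mother in both crosses, a one-sided share cannot by itself tell the parent from the line, and the reciprocal crosses separate these. A male sterile line makes no fertile pollen because of a gene in its cytoplasm, and its maintainer carries the same nuclear genome in a fertile cytoplasm, which lets crosses be made without selfing.

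Allele reads summed to 34433249 in RL and 29302004 in WY, against 29714227 in LR and 29149713 in YW. The tables share 47387 SNPs, all listed with the same pair of bases, and 83.2% of the RL reads and 87.5% of the WY reads fell on them. The japonica base is the listed reference at 46583 of these SNPs and the indica base at 804. Whether this affected the shares was not tested. A compared locus had a median of 370 reads in RL and 314 in WY, on a median of 3 shared SNPs, and 1652 loci (17.3%) rested on 1 SNP. A read that spans several SNPs is counted at each. Intervals below are 95% Wilson intervals for shares and exact 95% Poisson intervals for levels. Where 0 reads of an allele were found, the upper limit given is instead the share that 3 reads would make. Intervals and limits cover counting error only, and cross, plants and library preparation cannot be told apart. Every count is treated as a separate read, so intervals are too narrow, and calls more lenient, where reads span several SNPs. SNPs of a locus that point the same way may likewise share reads. Such SNPs also make up the sum by which a locus was called, so their agreement is no separate support for the call. At the edge of the read minimum, LOC_Os12g03750 with 30 reads in RL and 20 in WY was 90% maternal in RL (74.4 to 96.5) and 70.0% in WY (48.1 to 85.5). LOC_Os07g43290, just outside with 29 reads in RL and 20 in WY, was 100% maternal in RL (88.3 to 100) and 95% in WY (76.4 to 99.1). Levels are RPM, the reads of a locus at shared SNPs scaled to a common total of allele reads per cross. Glutelin and cupin loci, the main rice seed storage proteins and their relatives, summed to 186385 RPM in RL and 193093 in WY. Prolamin loci, the other storage class, summed to 28781 RPM in RL and 45868 in WY.

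The typical locus had the same maternal share in both indica-mother crosses. The median share over the 9547 loci was 63.9% in RL (quartiles 56 and 69.7) and 63.8% in WY (quartiles 55.7 and 69.8), against 66.7% for 2 maternal genomes to 1. At the same SNPs the median was 67.0% in LR and 74.6% in YW. The difference RL minus WY had a median of 0 points and a median size of 3.99 points. It lay within 5 points at 5553 loci (58.2%) and within 10 points at 7718 loci (80.8%), and its size reached 19.1 points at the 95th percentile. Across the 9547 loci the 2 shares correlated with Pearson 0.88 and Spearman 0.73, a description over loci that share the same pooled libraries.

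**Figure D1:**
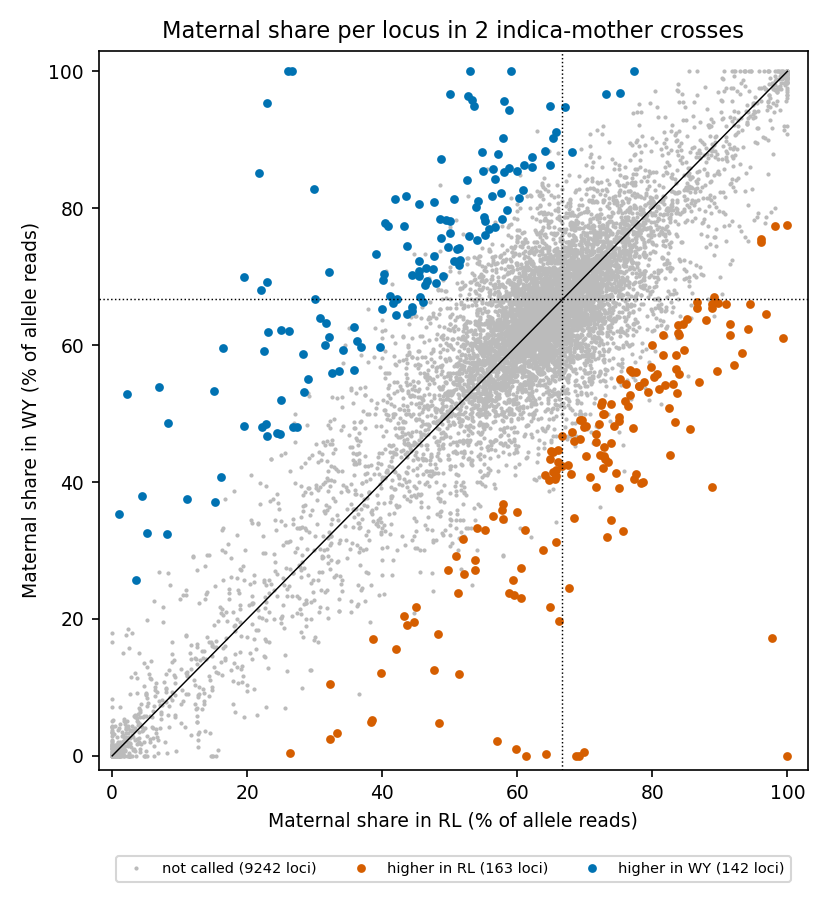
Maternal share of allele reads (%) of each of 9547 loci in RL (horizontal axis) and WY (vertical axis), with the diagonal of equal shares and dotted lines at 66.7%. Orange points are the 163 loci called higher in RL, blue points the 142 called higher in WY, and the corners hold loci on the same parent's side in both crosses.

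A share difference was called when it was at least 20 points and the Wilson intervals of the 2 crosses did not overlap. By this rule 163 loci (1.71%) had the higher maternal share in RL and 142 loci (1.49%) in WY, 305 (3.19%) in all. A further 117 loci differed by 20 points or more with overlapping intervals. The called loci were read less deeply than the typical locus, with medians of 112 reads in RL and 102 in WY for those higher in RL. Among the calls, 50 of 163 and 34 of 142 rested on 1 SNP, shares of 30.7% and 23.9%, against 17.3% of all loci compared. Where a called locus had at least 2 SNPs of 20 reads, every such SNP pointed the same way at 60 of 69 loci higher in RL and 61 of 75 higher in WY.

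The largest of the named differences toward RL were loci where WY reads carried the japonica base almost alone while RL reads carried both. LOC_Os02g32490, an AMP-binding enzyme (a class that activates carboxylic acids with ATP), was 69.8% maternal in RL (63.8 to 75.3) and 0.51% in WY (0.0901 to 2.83). Its reads in the reciprocal crosses were 59.6% maternal in LR and 99.2% in YW, so at the 2 shared SNPs the japonica base was nearly alone in both directions of the Wufeng and Yu6 cross. Over all SNPs of each table it was 66.1% maternal in RL and 34.5% in WY, so the near absence of maternal reads in WY holds for its shared SNPs only. LOC_Os09g36190, a family 8 glycosyl transferase, was 68.7% maternal in RL (65.2 to 72) and in WY 0 of 435 reads were maternal, for an upper limit of 0.69%. It stood at 62.7% in LR and 99.8% in YW.

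LOC_Os04g32330, annotated as the dihydrolipoyllysine-residue succinyltransferase of the mitochondrial oxoglutarate dehydrogenase complex, was 64.3% maternal in RL (60.6 to 67.9) and 0.328% in WY (0.09 to 1.19), with 72.4% in LR and 99.6% in YW. LOC_Os02g31290, annotated AML1 after the Mei2-like RNA-binding proteins of Arabidopsis, was 61.3% maternal in RL (55.3 to 67), and in WY 0 of 271 reads were maternal, for an upper limit of 1.11%. LOC_Os02g31140 was 59.8% maternal in RL (50.1 to 68.8) and 0.943% in WY (0.167 to 5.15). Each of these loci but LOC_Os02g32490 rested on 1 shared SNP. These loci were the complete set with the pattern: 160 loci had the japonica base at 98% or more in WY and YW, and 5 of them read both bases in RL and LR at 40% to 90% maternal. The reverse pattern, the japonica base alone in RL and LR with both bases in WY and YW, occurred at 0 of 157 loci. The indica base alone gave 0 of 53 loci for WY and YW and 0 of 56 for RL and LR. These counts depend on the limits. LOC_Os09g17120, described below, read the indica base almost alone in WY and YW and both bases in RL and LR. Its RL share of 26.7% lay below the 40% limit. LOC_Os02g31140, LOC_Os02g31290 and LOC_Os02g32490 lie on chromosome 2 between SNP positions 18639297 and 19224704, a proximity noticed after their values were seen. Positions are those of the deposited tables, and the sources used here name no genome build.

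A related imbalance appeared at SNPs listed for one cross set only. Of 11720 SNPs listed for WY and YW but not for RL and LR, 23.9% carried the japonica base alone in WY, against 4% of the shared SNPs, and their median maternal share in WY was 53.7%. Of 14715 SNPs listed for RL and LR only, 7.15% carried the japonica base alone in RL, against 4.17% of the shared SNPs, and their median maternal share in RL was 60.8%. Reads at table-specific SNPs were left out of the comparison.

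At the other 5 named loci of the same direction, WY kept some maternal reads. The prolamin gene PROLM23 (LOC_Os06g31060) was 66.2% maternal in RL (63.9 to 68.5) and 19.6% in WY (18.2 to 21.1), with 40.8% in LR and 95.7% in YW. The C3HC4 zinc finger gene LOC_Os12g43930 was 64.8% maternal in RL (62.8 to 66.8) and 21.8% in WY (20.0 to 23.7), with 69.6% in LR and 93.3% in YW. At both genes WY and YW leaned to the japonica allele. OsIAA19 (LOC_Os05g48590), an Aux/IAA gene of a family that represses auxin-responsive transcription, was 51.3% maternal in RL (48.2 to 54.4) and 12% in WY (8.84 to 16.1). It was 12.8% maternal in LR and 41.2% in YW, so WY and LR leaned most to the father. LOC_Os07g37570, an expressed protein, was 78.4% maternal in RL (75 to 81.4) and 39.9% in WY (33.4 to 46.8). LOC_Os02g34190, the remaining named locus, was 67.6% maternal in RL and 24.5% in WY on 1 SNP.

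Differences toward WY were led by 3 loci on which WY was read from the mother almost alone. LOC_Os03g59880, an expressed protein, was 26.1% maternal in RL (22.7 to 29.8) and in WY 0 of 149 reads were paternal, for an upper limit of 2.01%. Its share was 73.2% in LR and 32.0% in YW, the indica allele being the smaller fraction in RL and LR and the larger fraction in WY and YW. LOC_Os09g17120, an ankyrin repeat gene with 1 SNP, was 26.7% maternal in RL (23.1 to 30.5) and in WY 0 of 181 reads were paternal, for an upper limit of 1.66%. It was 79.8% maternal in LR and 1.92% in YW, again the japonica allele in the Liuqianxin and Rongfeng set and the indica allele in the Yu6 and Wufeng set.

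The amino acid transporter gene LOC_Os11g09020 (chromosome 11, SNPs 4799409 to 4801185) was the most densely covered of the large differences. It was 23% maternal in RL (21.9 to 24.1) and 95.3% in WY (93.7 to 96.6), and 17 of its 17 SNPs with at least 20 reads pointed the same way. In the reciprocal crosses it was 96.3% maternal in LR and 84.7% in YW. Its level also differed, at 157 RPM in RL (153 to 161) and 29.3 in WY (27.4 to 31.3), a 5.34-fold difference, beside 67.5 in LR and 46.9 in YW. RL was the only cross in which the paternal allele led.

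The F-box gene OsFBX404 (LOC_Os11g09590, chromosome 11, SNPs 5129653 to 5131133) lies near it. F-box proteins are putative substrate adaptors of ubiquitin ligases, and reads of such families can be shared among paralogs. OsFBX404 was 29.9% maternal in RL (27.4 to 32.5) and 82.9% in WY (78.8 to 86.3), with 13 of 13 SNPs in the same direction, and stood at 76.3% in LR and 55.1% in YW. Its level was 35.7 RPM in RL and 13.3 in WY. OsFBX410 (LOC_Os11g09690), whose SNPs end at 5175411, was 19.5% maternal of 41 reads in RL and 70.0% of 30 reads in WY. The 3 loci on one stretch of chromosome 11 were grouped after their values were seen.

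The other named loci with the higher share in WY were mostly unannotated. The hydrolase gene LOC_Os07g14600 was 52.7% maternal in RL (48.5 to 56.9) and 96.3% in WY (93.6 to 97.9), with 99.5% in LR and 73.9% in YW. LOC_Os12g04490 was 1.05% maternal in RL (0.356 to 3.03) and 35.3% in WY (30.8 to 40.1), and in LR 0 of 176 reads were paternal (upper limit 1.7%), while YW stood at 69%. Only japonica bases were thus common in RL and LR at this locus, and its WY share lay below the 40% limit of the count above. LOC_Os08g13699, LOC_Os04g06520, LOC_Os03g41662 and LOC_Os08g35500 had shares of 25% to 47.7% in RL and 62.1% to 80.9% in WY. At its SNP with most reads alone, LOC_Os03g41662 was no longer called.

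**Figure D2:**
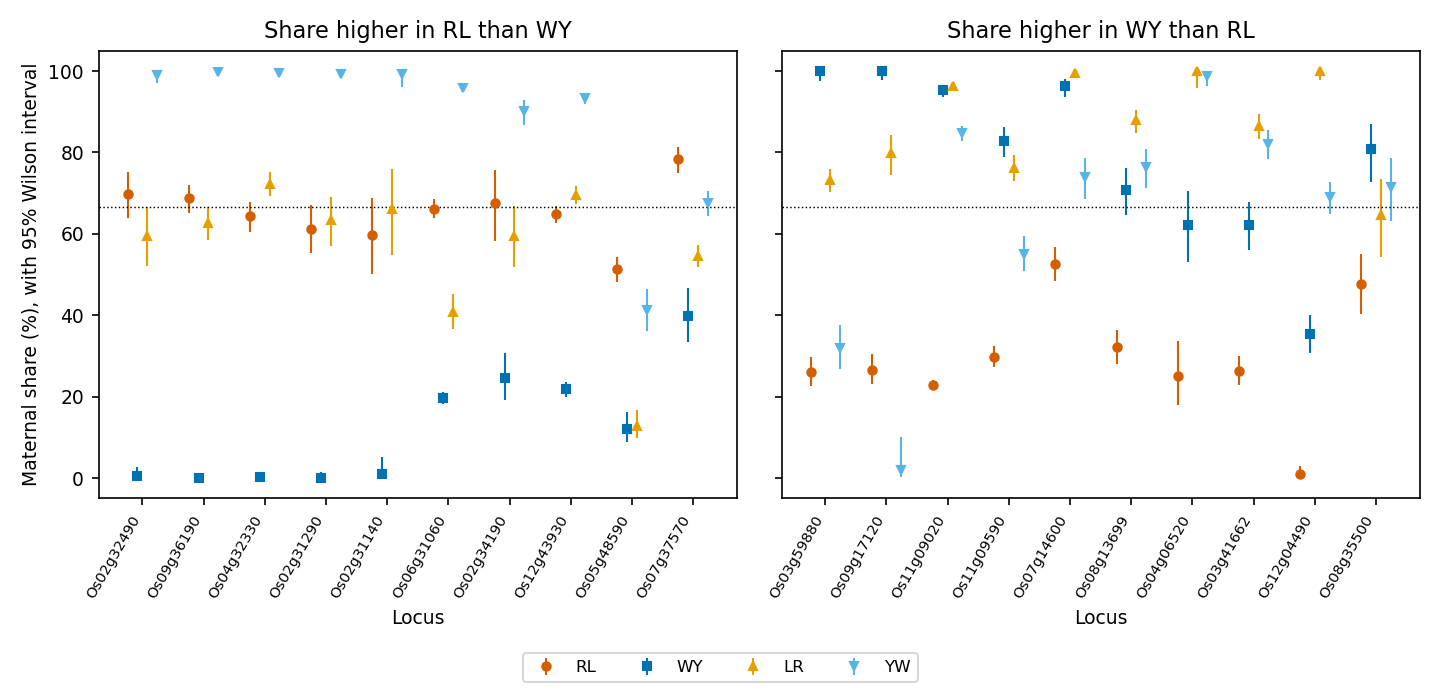
Maternal share (%) with its 95% Wilson interval in RL, WY, LR and YW for the 10 named loci with the higher share in RL (left) and the 10 with the higher share in WY (right), and a dotted line at 66.7%. At the 5 leftmost loci of the left panel WY lies below 1% and YW above 99%, while RL and LR lie near the dotted line.

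The reciprocal crosses were read at 9348 of the 9547 loci. There the maternal share was lower in LR than in YW at most loci, with a median difference LR minus YW of -6.91 points. By the same size rule 42 loci (0.449%) were higher in LR and 622 loci (6.65%) higher in YW. Of the 156 loci with the higher share in RL that were read, 1 was higher in LR and 39 (25%) were higher in YW, their median difference being -10.5 points. A higher maternal share in both RL and YW means a larger japonica fraction in the Yu6 and Wufeng set whichever line was the mother. Of the 136 loci with the higher share in WY, 9 were higher in LR and 9 in YW, with a median difference of -3.29 points.

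One-sided loci were largely shared between the indica-mother crosses. A locus was put on a parent's side when its ratio was at least 5 times from 2:1, a maternal share of at least 90.9% or at most 28.6%. On the maternal side stood 309 loci in RL and 312 in WY, and 241 (2.52% of all compared) were there in both. On the paternal side stood 707 loci in RL and 708 in WY, and 603 (6.32%) were there in both. Only 5 loci were on opposite sides. The 241 loci had median shares of 99.5% in RL and 99.3% in WY, and the 603 loci 4.88% in RL and 4.98% in WY.

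Reading LR and YW split these sets only in part into parent and line. Of the 241 loci on the maternal side, 221 were read in both reciprocal crosses. At 71 of them (32.1%) the mother's allele was again on its side in LR and YW, and at 101 (45.7%) the father's was, which is the indica allele in all 4 crosses. The other 49 fell in neither class, 22 of them between the limits in both LR and YW. Of the 603 loci on the paternal side, 583 were read, and 60 (10.3%) were again on the paternal side in both. At 281 (48.2%) the maternal side followed in both, the japonica allele in all 4 crosses. The japonica base is the listed reference at most shared SNPs, and its part in these counts was not tested. The other 242 fell in neither class, and 105 of them were between the limits in both LR and YW. Another 95 of the 242 were on the paternal side in LR with YW between the limits. None (0) had YW on the paternal side and LR between the limits.

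**Figure D3:**
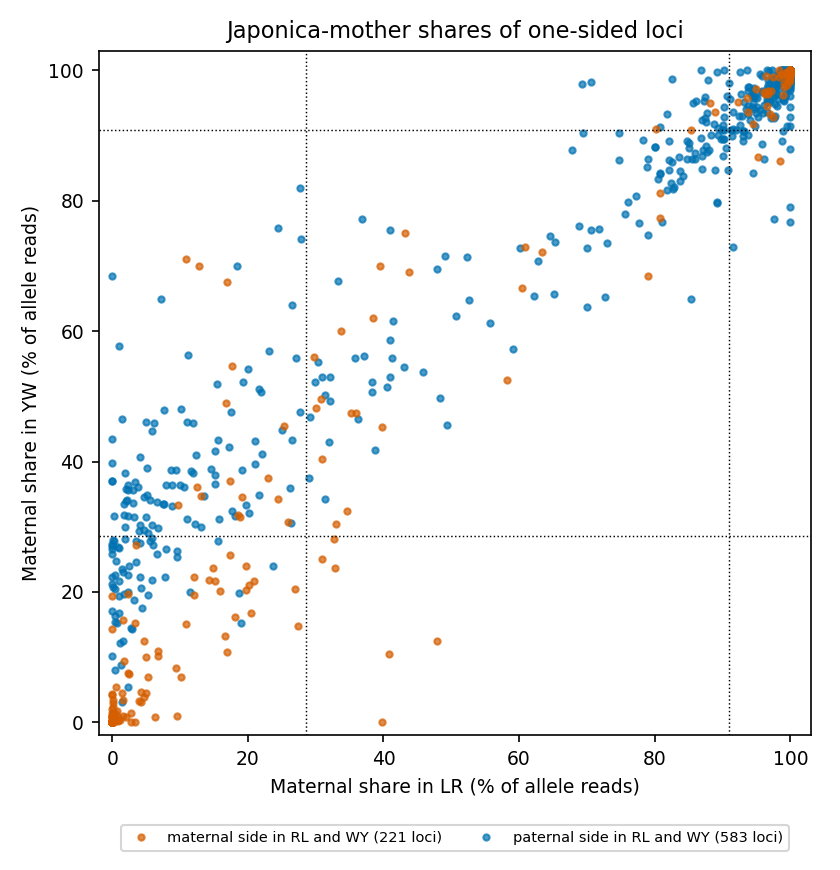
Maternal share (%) in LR (horizontal axis) and YW (vertical axis) of the loci on the maternal side in RL and WY (orange, 221 loci) and on the paternal side in RL and WY (blue, 583 loci), with dotted lines at 28.6% and 90.9%. Loci on the same parent's side in all crosses sit in the upper right if orange (71) and the lower left if blue (60), and those that follow one line sit in the opposite corners.

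The loci farthest to one side in RL and WY were mixtures of both kinds. Ranked by the smaller of the 2 shares, with ties ordered by reads, LOC_Os02g28580, an expressed protein, led the maternal side where 0 of 1343 reads in RL and 0 of 884 in WY were paternal, with upper limits of 0.223% in RL and 0.339% in WY. It was 99.9% maternal in LR and 99.5% in YW. LOC_Os11g27470 and LOC_Os09g36970 were likewise maternal in all crosses, at 98.6% or more. At LOC_Os04g13260, LOC_Os10g20990 (a ribosomal protein S12 gene), LOC_Os10g42970, LOC_Os08g13050 and the serine carboxypeptidase gene OsSCP19 (LOC_Os03g52040), the paternal indica allele was read almost alone in LR and YW, with maternal shares of at most 1.47%.

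On the paternal side the CTP synthase gene LOC_Os12g36950, which makes a nucleotide for RNA and lipid synthesis, was maternal in 0 of 278 reads in RL and 0 of 254 in WY, with upper limits of 1.08% in RL and 1.18% in WY. It stayed paternal at 1.24% maternal in LR and 8.74% in YW. The AP2 domain gene LOC_Os06g42990, of a transcription factor family, was maternal in 0 of 186 reads in RL (upper limit 1.61%) and 0 of 287 in WY (upper limit 1.05%), and stood at 5.08% in LR and 34.9% in YW. The other 6 loci carried the japonica allele in every cross, with maternal shares of 98.2% or more in LR and YW. Among them were a Ty3-gypsy retrotransposon locus (LOC_Os01g37350), a Ty1-copia locus (LOC_Os12g21820) and an NBS-LRR resistance gene (LOC_Os11g29050).

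Loci on one parent's side in all 4 crosses were named from the same ranking, a choice made after their values were seen. On the maternal side the basic leucine zipper gene LOC_Os04g10260 was 99.9% maternal in RL and WY at 96.8 RPM in RL and 120 in WY. The F-box gene OsFBX270 (LOC_Os08g09700) was 99.7% maternal in both, at 1038 RPM in RL and 783 in WY. The level of some such genes differed although their share did not. LOC_Os06g30280 had 216 RPM in RL and 83.8 in WY, a 2.58-fold difference, with shares of 99.9% in RL and 99.7% in WY. Its level was 36.4 in LR and 357 in YW. The direction RL over WY was shown by 6 of its 9 SNPs with at least 20 reads. LOC_Os05g30400 and LOC_Os11g27470 went the other way, with 5.29 and 9.12 RPM in RL and 16.7 and 22.8 in WY.

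On the paternal side LOC_Os01g56110, an RNA recognition motif gene, was 1.34% maternal in RL and 1.54% in WY at 213 RPM in RL and 202 in WY. It was 3.27% maternal in LR and 18.8% in YW. LOC_Os12g31350, an SSXT domain gene of a family of transcriptional coactivators, was 0.80% maternal in RL and 0.713% in WY at 98.1 RPM in RL and 95.8 in WY. SWP (LOC_Os08g24420) was 0.708% maternal in RL and 0.448% in WY at 16.4 RPM in RL and 15.2 in WY. LOC_Os01g68820 had 107 RPM in RL and 73.8 in WY, with shares of 1.06% in RL and 0.601% in WY. Its share was 0.365% in LR and 16.3% in YW. None of these 4 loci was called for share or level.

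Read levels were closely alike between RL and WY at most loci. Levels are compared between crosses and never between genes, since RPM grows with the number of SNPs of a locus. The log2 ratio RL over WY had a median of 0.02 and a median size of 0.35, and 6905 loci (72.3%) lay within 1.5-fold. Across loci the log2 levels correlated with Pearson 0.96 and Spearman 0.95, again as a description. A level was called when it differed at least 2-fold with Poisson intervals apart. That held for 470 loci higher in RL (4.92%) and 447 higher in WY (4.68%), 917 (9.61%) in all, of which 68 and 67 differed at least 4-fold. In pooled endosperm, fewer cells of a type and less RNA per cell cannot be told apart.

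Most loci called for share were not called for level, but level calls were more frequent among them than the 9.61% over all loci. Of the 163 loci with the higher share in RL, 26 had the higher level in RL and 21 in WY. Of the 142 with the higher share in WY, 13 had the higher level in RL and 6 in WY. Among the level calls, 156 of 470 toward RL (33.2%) and 84 of 447 toward WY (18.8%) rested on 1 SNP, and where at least 2 SNPs had 20 reads, all of them pointed the same way at 204 of 234 and 246 of 266 loci.

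The largest ratio toward RL was at LOC_Os07g42390, a DUF581 gene with 1 shared SNP. It had 324 RPM in RL and 7.24 in WY, a 44.7-fold difference, beside 259 in LR and 375 in YW. WY was the one low cross of the 4, and the maternal share at this SNP was 10.5% in RL and 8.02% in WY. Over all SNPs of each table it was 46.7% in RL and 8.02% in WY, with 836 RPM in RL and 7.24 in WY. LOC_Os07g38630, an expressed protein, had 208 RPM in RL and 7.92 in WY, a 26.3-fold difference that 4 of 4 SNPs showed, beside 171 in LR and 106 in YW. The ribosomal protein gene for 60S L21-2 (LOC_Os03g04750) had 95 RPM in RL and 3.75 in WY, beside 203 in LR and 77.4 in YW. Over all SNPs it had 222 in RL and 24.9 in WY. Of its 2 shared SNPs, 1 had at least 20 reads in both crosses. At shared SNPs its maternal share was 68.2% in RL and 47.3% in WY, also a called difference. Over all SNPs of each table the share was 67.6% in RL and 7.26% in WY.

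The remaining loci toward RL included genes of known classes. The cysteine proteinase inhibitor gene LOC_Os05g41460, of a family that blocks papain-like proteases, had 48.9 RPM in RL and 4.23 in WY, an 11.6-fold difference, beside 3.10 in LR and 26.8 in YW. There WY and LR were the low crosses. LOC_Os07g06880, annotated as a gibberellin receptor of the GID1L2 class, had 92.8 RPM in RL and 8.57 in WY, with 41.5 in LR and 20.4 in YW. LOC_Os12g43600, an RNA recognition motif gene, had 1468 RPM in RL and 107 in WY at its 1 shared SNP. When every SNP of each table was counted instead, it had 1468 in RL and 32753 in WY, so the direction of this difference depends on which SNPs are read. LOC_Os10g32680, LOC_Os10g33855, LOC_Os07g36410 and LOC_Os07g04330 were 5.99-fold to 9.02-fold higher in RL.

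Toward WY the largest ratio was at the NAC transcription factor gene LOC_Os11g31380 (chromosome 11, SNPs 18311817 to 18313628). It had 51.6 RPM in RL (49.2 to 54.1) and 1317 in WY (1304 to 1330), a 25.5-fold difference that 16 of 16 SNPs showed, beside 334 in LR and 501 in YW. Its reads were mostly paternal, with maternal shares of 8.05% in RL (6.87 to 9.40) and 0.384% in WY (0.327 to 0.45), beside 1.02% in LR and 57.8% in YW. The neighbouring NAC gene LOC_Os11g31330 was 2.40% maternal in RL and 1.49% in WY and differed by a log2 ratio of -0.26. NAC paralogs can share reads.

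The subtilisin-like protease gene OsSub63 (LOC_Os12g23980) had 6.24 RPM in RL and 87.1 in WY, a 14.0-fold difference, beside 31.9 in LR and 47.2 in YW. The peroxiredoxin gene LOC_Os07g44430, whose product reduces peroxides, had 13.4 RPM in RL and 126 in WY, beside 140 in LR and 164 in YW. At both genes RL was the low cross of the 4. The pathogenesis-related Bet v I gene LOC_Os04g39150 had 4.18 RPM in RL and 33.0 in WY, and 6.80 in LR and 60.7 in YW, and was at least 99.6% maternal in every cross. LOC_Os10g19902, LOC_Os04g22235, LOC_Os10g24004 and the glycosyl hydrolase gene LOC_Os11g47550 were 6.59-fold to 11-fold higher in WY.

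Prolamin genes, of the storage proteins, differed in both directions. Of 8 prolamin loci compared, 3 were called higher in level in RL and 2 in WY, and 2 had the higher maternal share in RL and 1 in WY. That is 62.5% called for level and 37.5% for share, beside 9.61% and 3.19% of all loci. On chromosome 5, PROLM14 (LOC_Os05g26620) had 2508 RPM in RL (2491 to 2525) and 675 in WY (666 to 685), beside 66.1 in LR and 61.0 in YW. Its maternal share was 99.7% in RL and 99.6% in WY against 0.153% in LR and 2.98% in YW, the indica allele throughout. PROLM16 (LOC_Os05g26720) had 519 RPM in RL and 189 in WY, with maternal shares of 65.7% in RL and 91.1% in WY. Over all SNPs, which are more numerous in the RL table at this locus, it had 1814 RPM and a share of 20.1% in RL, against 189 RPM and 91.1% in WY. PROLM17 (LOC_Os05g26750) had 134 in RL and 34.6 in WY at 1 shared SNP, but 178 in RL and 527 in WY over all SNPs of each table. PROLM1 (LOC_Os05g26240) had 116 in RL and 73.5 in WY and was not called. Over all SNPs of each table it had 236 in RL and 86.0 in WY. Level calls among prolamins then numbered 7, against 5.

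On chromosome 6 the prolamin levels were higher in WY. PROLM24 (LOC_Os06g31070) had 7727 RPM in RL and 18975 in WY, a 2.46-fold difference shown by 7 of 7 SNPs, beside 5272 in LR and 17672 in YW. Its maternal share was 83.0% in RL and 54.3% in WY, with 88.0% in LR and 99.4% in YW. PROLM23 had 46.7 RPM in RL and 96.8 in WY. On chromosome 12, PROLM28 (LOC_Os12g16890) had 17709.7 in RL and 25790.4 in WY, and PROLM29 (LOC_Os12g17010) 21.8 in RL and 33.8 in WY, neither of them called. PROLM29 rested on 1 shared SNP and had 95.5 RPM in RL and 5007 in WY over all SNPs of each table. Prolamins are a multigene family with near-identical copies, so the locus behind such reads is uncertain.

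Of 19 glutelin and cupin loci, 0 were called higher in level in RL and 1 in WY, and 0 had the higher share in RL and 1 in WY. Each is 5.26% of the list, beside 9.61% of all loci for level and 3.19% for share. Their median log2 ratio was -0.06 and their median share difference -2.25 points, beside 0.02 and 0 over all loci. Among the glutelin loci with most reads, LOC_Os02g25640 had 43199 RPM in RL and 66435 in WY, and LOC_Os03g31360 had 33625 in RL and 25659.8 in WY, both short of 2-fold. The called level was that of the cupin domain gene LOC_Os01g74480, with 5.81 RPM in RL and 19.7 in WY.

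The lipid transfer protein family LTPL, small secreted proteins that include seed storage and defence members, had 14 loci compared. Of these, 2 were called higher in level in RL and 3 in WY, 35.7% beside 9.61% of all loci, with a median log2 ratio of 0.63. LTPL162 (LOC_Os11g40530), maternal in all crosses, had 40.9 RPM in RL and 327 in WY, an 8-fold difference shown by 14 of 14 SNPs, beside 698 in LR and 1065 in YW. LTPL151 (LOC_Os03g02050) had 22.9 in RL and 161 in WY, beside 188 in LR and 602 in YW. LTPL33 (LOC_Os12g13960) had 17.9 in RL and 39.9 in WY, and a maternal share of 78.8% in RL and 54.7% in WY. LTPL74 (LOC_Os03g57990) went the other way with 52.1 in RL and 11.4 in WY, as did LTPL52 (LOC_Os03g26820) with 54.7 in RL and 18.3 in WY.

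**Figure D4:**
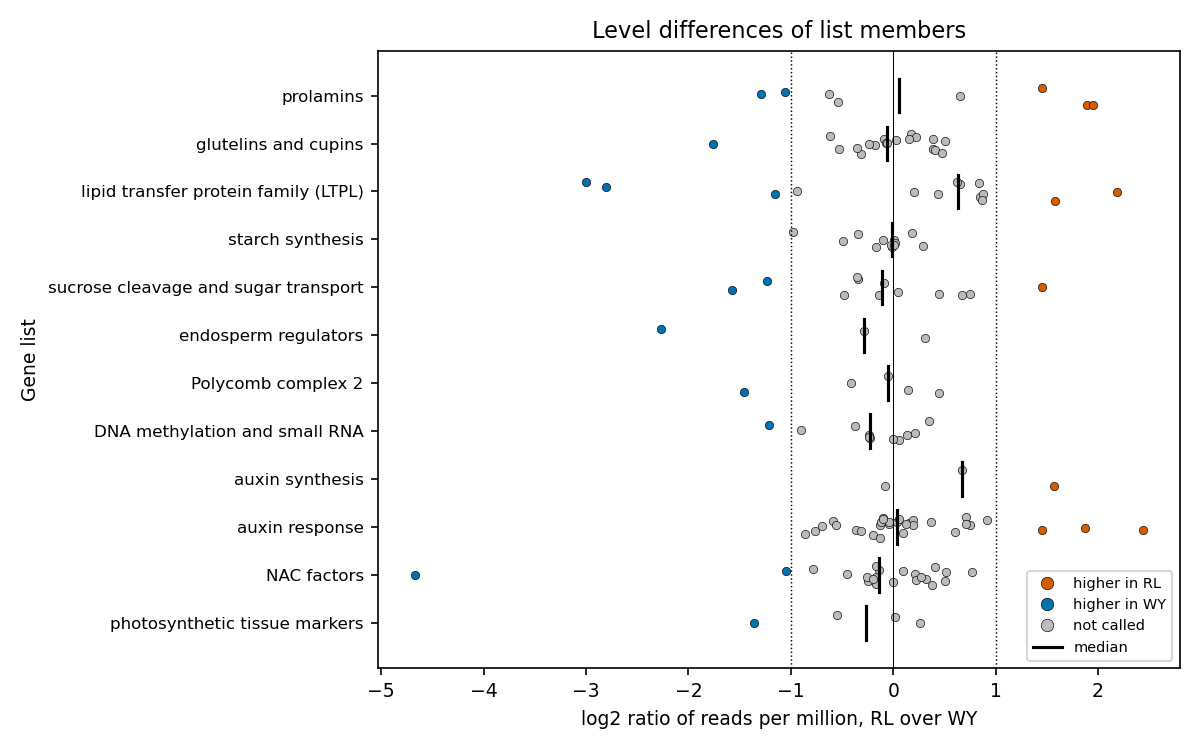
Log2 ratio of RPM, RL over WY, of each compared member of 12 gene lists, with dotted lines at 2-fold and a bar at each list's median. Orange members were called higher in RL and blue members higher in WY, and the starch synthesis list has 0 called members.

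Of 12 starch synthesis loci 0 passed the size rule for share or level, beside 3.19% of all loci for share and 9.61% for level. When all SNPs of each table were counted, 1 locus was called for level. Their log2 ratios ran from -0.98 to 0.29 with a median of -0.02. AGPS2 (LOC_Os08g25734), a subunit of the pyrophosphorylase that makes ADP-glucose, had 8178 RPM in RL and 6691 in WY. BT1 (LOC_Os02g10800), which carries ADP-glucose into the amyloplast, had 1551 in RL and 1566 in WY. The debranching enzyme gene ISA1 (LOC_Os08g40930) had 1296 in RL and 1280.2 in WY. The starch synthase III gene LOC_Os08g09230 lay nearest the limit at 183 in RL and 361 in WY, beside 177 in LR and 532 in YW.

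Among 12 loci for sucrose cleavage and sugar transport, 1 was called higher in level in RL and 2 in WY, 25% beside 9.61% of all loci. The sucrose synthase gene LOC_Os03g28330 had 65.9 RPM in RL (63.2 to 68.7) and 24.1 in WY (22.4 to 26.0), beside 118 in LR and 23.6 in YW. It was also the list's share call, at 89.6% maternal in RL (88.2 to 90.7) and 56.2% in WY (52.5 to 59.8), with 49% in LR and 79.4% in YW. SWEET11 (LOC_Os08g42350), a sucrose exporter of the SWEET family, had 3.75 in RL and 11.2 in WY and was 100% maternal in RL and 99.1% in WY. A further SWEET family locus, LOC_Os02g19820, had 2.27 in RL and 5.32 in WY. The sucrose synthase genes SUS2 (LOC_Os06g09450) and SUS3 (LOC_Os07g42490) differed by log2 ratios of -0.09 and -0.35, and the sucrose transporter gene SUT1 (LOC_Os03g07480) by -0.14.

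Of the endosperm transcription factors, NF-YB1 (LOC_Os02g49410), an endosperm-specific subunit of the NF-Y complex that regulates sucrose transporter genes, differed most. It had 70.5 RPM in RL (67.7 to 73.4) and 340 in WY (334 to 347), a log2 ratio of -2.27 that 6 of 6 SNPs showed, beside 612 in LR and 679 in YW. RL was thus the low cross, and the maternal share was 64.2% in RL and 64.8% in WY. Its partner NF-YC12 (LOC_Os10g11580) had 989 in RL and 798 in WY with shares of 96.6% in RL and 97.7% in WY. RPBF (LOC_Os02g15350), a DOF factor that activates storage protein genes, had 1545 in RL and 1882 in WY. Neither of these was called at shared SNPs. Over all SNPs of each table RPBF was 74.9% maternal in RL and 38.8% in WY, at 1983 RPM in RL and 3660 in WY.

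Polycomb repressive complex 2 places a repressive histone mark and acts in imprinting of plant endosperm. Of its 5 loci compared, 0 were called higher in level in RL and 1 in WY, and 0 were called for share, that is 20% and 0% beside 9.61% and 3.19% of all loci. OsFIE1 (LOC_Os08g04290), the endosperm-expressed WD40 subunit, had 5.61 RPM in RL (4.84 to 6.45) and 15.4 in WY (14.0 to 16.8), beside 40.2 in LR and 36.1 in YW. It was 99.5% maternal in RL (97.1 to 99.9) and 98.2% in WY (96.5 to 99.1). Its broadly expressed relative OsFIE2 (LOC_Os08g04270) had 55.6 in RL and 73.8 in WY with shares of 65.9% in RL and 70.7% in WY. OsEMF2a (LOC_Os04g08034), the zinc finger subunit, was 86.4% maternal in RL and 82.8% in WY at 8.10 in RL and 5.94 in WY.

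Among 11 loci of DNA methylation and small RNA pathways, 0 were called for share, 0 for a higher level in RL and 1 for a higher level in WY, 9.09% beside the 9.61% of all loci. That locus was the argonaute gene LOC_Os07g09020, with 1.34 RPM in RL and 3.11 in WY and paternal reads at 0 of 46 in RL (upper limit 6.52%) and 0 of 91 in WY (upper limit 3.3%). OsAGO4b (LOC_Os04g06770) was 38.4% maternal in RL and 42.4% in WY at 53.0 in RL and 62.1 in WY. The maintenance methyltransferase gene OsMET1b (LOC_Os07g08500) was 49.5% maternal in RL and 47.8% in WY, but 11.2% in LR and 22.9% in YW. LOC_Os05g04330, annotated as a DNA methyltransferase, was 0.463% maternal in RL and in WY 0 of 216 reads were maternal, for an upper limit of 1.39%.

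Auxin synthesis genes kept their shares while one level differed. OsYUCCA9 (LOC_Os01g16714), a flavin monooxygenase of the last step of auxin synthesis, had 356 RPM in RL (350.1 to 363) and 120 in WY (116 to 124), a log2 ratio of 1.57 shown by 4 of 4 SNPs, beside 115 in LR and 121 in YW. RL was the high cross, and the maternal share was 64.3% in RL and 64.9% in WY. OsYUCCA11 (LOC_Os12g08780) was 0.385% maternal in RL and 0.64% in WY at 45.3 in RL and 48.0 in WY. OsTAR1 (LOC_Os05g07720), an aminotransferase of the preceding step, was 1.51% maternal in RL and 1.38% in WY at 94.2 in RL and 59.2 in WY. Of 31 auxin response loci, 3 were called higher in level in RL and 0 in WY, and 2 had the higher share in RL and 0 in WY. The level calls are 9.68% of the list, beside 9.61% of all loci, and the share calls 6.45%, beside 3.19%. The level calls were OsIAA19, with 28.8 in RL and 10.5 in WY, OsSAUR21 (LOC_Os04g52670), with 8.16 in RL and 1.5 in WY, and OsIAA23 (LOC_Os06g39590), with 3.25 in RL and 0.887 in WY. In WY, OsSAUR21 rested on 44 reads and OsIAA23 on 26, each at 1 shared SNP. The other share call was the auxin response factor gene LOC_Os01g48060, 38.5% maternal of 65 reads in RL and 5.26% of 57 reads in WY. Over all SNPs of each table it was 37.4% in RL and 21.1% in WY, short of 20 points.

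In larger families the share of loci called is read against 9.61% of all loci for level and 3.19% for share. Of 409 kinase loci, 20 had the higher level in RL and 13 in WY, 8.07% in all, and 6 had the higher share in RL and 8 in WY, 3.42% in all. Of 245 zinc finger loci, 7 had the higher level in RL and 6 in WY, 5.31% in all. Of 239 F-box loci, 6 had the higher level in RL and 4 in WY, 4.18% in all, and 0 had the higher share in RL and 5 in WY, 2.09% in all. Transposon loci numbered 240, with 12 higher in level in RL and 12 in WY, 10% in all. For share, 5 of them were higher in RL and 6 in WY, 4.58% in all.

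Ribosomal protein loci had a median log2 ratio of -0.33 over 186 loci, lower than the 0.02 of all loci. Of them, 6 were called higher in level in RL and 8 in WY, 7.53% beside 9.61% of all loci. Redox enzymes had 50 loci, of which 4 were higher in level in RL and 6 in WY, 20% of the list. For share, 3 were higher in RL and 0 in WY, 6% beside 3.19% of all loci. Heat shock proteins and chaperones had 89 loci with 5 higher in level in each cross, 11.2% in all. The 40 MYB loci gave 2 and 3, the 23 NAC loci 0 and 2, and the 29 NBS-LRR loci 0 and 2, the first of each pair being higher in RL and the second higher in WY. Level calls thus made up 12.5% of the MYB, 8.70% of the NAC and 6.90% of the NBS-LRR loci. Of 4 photosynthetic tissue markers compared, 0 were higher in level in RL and 1 in WY, 25% beside 9.61% of all loci. The called marker was a ribulose bisphosphate carboxylase small chain gene (LOC_Os12g19381) with 12 RPM in RL and 30.7 in WY. The 4 markers summed to 47.9 RPM in RL and 80.7 in WY, beside 113 in LR and 181 in YW, and the part of green maternal tissue in the level differences was not tested.

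Level differences were weakly related between the directions of the crosses. Over 9348 loci the log2 ratios RL over WY and LR over YW correlated with Pearson 0.16 and Spearman 0.16, a description over loci of the same pooled libraries. By the 2-fold rule 354 loci (3.79%) were higher in LR and 888 (9.50%) in YW. Of 448 loci higher in RL, 43 (9.6%) were higher in LR and 41 (9.15%) in YW. Of 435 loci higher in WY, 9 (2.07%) were higher in LR and 109 (25.1%) in YW.

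**Figure D5:**
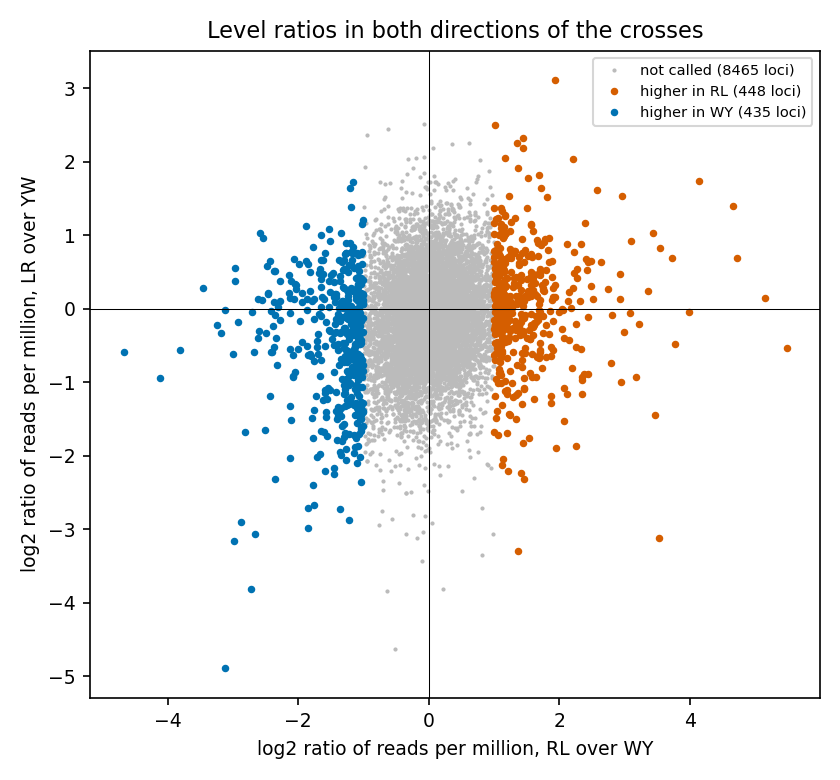
Log2 ratio of RPM of 9348 loci, RL over WY on the horizontal axis and LR over YW on the vertical axis, with called loci coloured (448 higher in RL, 435 higher in WY). Blue points lie more often below the horizontal line, with 109 of 435 also called higher in YW and 9 called higher in LR.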

How the data were processed

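RNA of endosperm was sequenced and reads were counted per allele at SNPs between the parents of each cross. The deposited tables hold whole-number counts of maternal and paternal reads per SNP, with 1 column per cross and allele per the file headers, so libraries of a cross are pooled. The authors also deposited a p-value per SNP and cross, which was not used here. GATK 3.5, SAMtools 0.1.16, Bowtie2 2.2.1 and Trimmomatic 0.32 are listed, unordered, per the submitters' processing notes, and the sources used here name no genome build. Every listed SNP has at least 11 reads in each cross of its table, which limits the loci that can be seen. A further 8 columns of RL and LR (reference, alternative and total coverage, and a ratio) were not used.

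Counts were summed per locus over SNPs present in both tables, with Python 3.11.15, pandas 2.3.3 and scipy 1.17.1. A locus needed 30 reads in RL and 20 in WY. Loci counted as read in the reciprocal crosses also had at least 30 reads in LR and 20 in YW. LR and YW values given for single loci had no such minimum. Levels are RPM, scaled to all allele reads of a cross. With pooled columns no test between replicates could be run, so calls are calls of size with intervals apart (20 points, or 2-fold), and no p-value is given. These rules were tested on simulated counts with counting error alone and shifts larger than the limits of the calls. That test cannot say how many calls come from differences between plants or libraries. TMM factors came from edgeR 4.0.16 in R 4.3.3, as an alternative scaling only.

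The loci, gene lists, rules and alternatives were chosen with earlier results of these data known. Lists follow the tables' own annotation or locus IDs. Loci named by rank needed 100 reads in each cross. They are the 10 largest called share differences in each direction, the 10 largest called level ratios in each direction with at least 10 RPM in the higher cross, the 8 most one-sided loci per parent and the 10 loci with most reads. Also named, without that minimum, are all members of lists of up to 15 and 2 to 4 called members of larger lists. The flagged loci and the loci at the edge of the read minimum could have fewer reads as well. Nothing in the labels says that libraries of a cross came from separate plants.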

Additional observations from a re-analysis of the deposited data

Results flagged for a closer look

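At 5 loci the maternal share was on one parent's side in RL and on the other parent's side in WY, each at least 5 times from 2:1. LOC_Os02g42950, a YABBY domain gene with 1 shared SNP, was 100% maternal of 84 reads in RL and 0% of 138 reads in WY, a difference RL minus WY of 100 points. In the reciprocal crosses it was 0% maternal of 16 reads in LR and 100% of 91 reads in YW, so each cross set carried one line's base alone, a different line in each set. LOC_Os11g45360, the defensin-like gene DEFL15, was 97.8% maternal in RL (92.2 to 99.4) and 17.2% in WY (11.4 to 25.1), a difference of 80.5 points, with 29.9% in LR and 86.3% in YW. Toward WY, the differences RL minus WY were -73.9 points at LOC_Os03g59880, -73.3 points at LOC_Os09g17120 and -72.4 points at LOC_Os11g09020, whose shares in every cross are given above. None of these differences was tested against replicates, because the libraries of each cross are pooled.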

How the results depend on the processing

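Counting all SNPs of each table gave 471 share calls toward RL, against 163, and 190 toward WY, against 142, a less even balance. It gave 962 level calls toward RL and 783 toward WY, against 470 and 447, over 9970 loci. A minimum of 100 reads in each cross left 63 share calls toward RL and 61 toward WY and 232 and 259 level calls, over 7194 loci, and stricter sizes left 53 and 50 share calls (30 points) and 68 and 67 level calls (4-fold). The share calls toward RL that were also higher in YW than LR numbered 229, 18 and 21 under all SNPs, 100 reads and 30 points, against 39. The level calls toward WY that were also higher in YW than LR numbered 360, 67 and 12 under all SNPs, 100 reads and 4-fold, against 109. Level calls in the starch list numbered 1 under all SNPs, under the SNP with most reads and under a total without the 20 loci with most reads, against 0, and in the sucrose list 5 under all SNPs, against 3. LOC_Os12g43600 reversed to a log2 ratio of -4.48 under all SNPs, where only the SNPs read differ. LOC_Os03g41662 fell to -17.1 points at its SNP with most reads and lost its call. That setting gave 157 and 145 share calls, of which 88 and 74 were shared with those reported. It gave 515 level calls toward RL and 442 toward WY, over 8698 loci. Of these, 340 and 276 were shared with the 470 and 447 reported. Other scalings shifted log2 ratios by at most -0.07, and the total without 20 loci gave 399 level calls toward RL and 548 toward WY. Counts on one parent's side stayed within 1.5 times under each alternative. No paired analysis was possible because the columns pool the libraries of a cross, and for the same reason leaving out each replicate was not run. Depth also limits the share calls: 117 differences past 20 points had overlapping intervals.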
